A study of Mus musculus with 12 samples.

Results

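The 9 genes described here, Tbr1, Eomes, Fezf2, Bcl11b, Bcl11a, Cux1, Cux2, Pou3f2 and Sox5, encode transcription factors that mark or specify the glutamatergic projection neurons of the cerebral cortex. They form a list of names, with no threshold on a measured value, and are 9 of the 55450 annotated genes and of the 21951 protein-coding genes whose promoters were examined. Trimethylation of histone H3 at lysine 4 (H3K4me3), found at promoters that are active or poised, was measured by CUT&Tag, in which an antibody tethers a transposase to the modified nucleosome. The tissues were the medial, lateral and caudal ganglionic eminences (MGE, LGE and CGE) and the somatosensory cortex (CTX) of wild-type C57BL/6J mouse embryos at E12.5, all untreated, with tissue of several embryos pooled. A total of 12 libraries (4 CGE, 3 CTX, 2 LGE and 3 MGE) represented 2 replicates per region, but the deposited values are 1 merged list of broad peaks per region. The lists therefore hold no replicate error, no difference between regions could be tested, and each statement below describes these 4 lists.

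Projection neurons are born from progenitors of the dorsal telencephalon, whereas the ganglionic eminences give rise to GABAergic interneurons and to projection neurons of the basal ganglia. In the dorsal lineage, Eomes (also called Tbr2) marks intermediate progenitors and its T-box relative Tbr1 marks early-born neurons of the deep layers. Fezf2 and Bcl11b (Ctip2) act in subcerebral projection neurons, Sox5 and Bcl11a (Ctip1) act in deep-layer neurons, and Cux1, Cux2 and Pou3f2 (Brn2) are used as markers of upper-layer neurons. These roles are not exclusive to the cortex, since Bcl11b also marks striatal medium spiny neurons. Each dissected region is a mixture of progenitors and young neurons. In such bulk tissue, fewer cells that carry the mark and less mark per cell cannot be told apart.

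Sequence is shown first for the elements to which the results return. The first 3 sequences are the 250 bases before the RefSeq start site of Tbr1, whose promoter was free of peaks in every list, of Eomes, whose promoter was covered whole, in part or not at all, and of Pou3f2, whose promoter was covered in every list. The last is the whole MGE peak of Fezf2, which lies in a coding exon and holds the only bases of that gene marked in all 4 lists. All are in GRCm38, written 5′ to 3′ on the strand of the gene in lower case, with CpG sites in capitals. The positions are chr2:61804203-61804452 on the plus strand for Tbr1, chr9:118477939-118478188 on the plus strand for Eomes, chr4:22488367-22488616 on the minus strand for Pou3f2 and chr14:12344968-12345147 on the minus strand for Fezf2.
Tbr1 promoter: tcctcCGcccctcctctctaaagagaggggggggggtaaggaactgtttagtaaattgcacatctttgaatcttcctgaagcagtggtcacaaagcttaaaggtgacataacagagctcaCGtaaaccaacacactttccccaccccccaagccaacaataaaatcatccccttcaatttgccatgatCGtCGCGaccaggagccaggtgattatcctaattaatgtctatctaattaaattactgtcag
Eomes promoter: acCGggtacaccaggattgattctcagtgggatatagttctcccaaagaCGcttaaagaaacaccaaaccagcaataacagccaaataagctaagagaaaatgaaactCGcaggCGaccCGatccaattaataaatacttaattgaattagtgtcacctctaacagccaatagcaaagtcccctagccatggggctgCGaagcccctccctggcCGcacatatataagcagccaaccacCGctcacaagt
Pou3f2 promoter: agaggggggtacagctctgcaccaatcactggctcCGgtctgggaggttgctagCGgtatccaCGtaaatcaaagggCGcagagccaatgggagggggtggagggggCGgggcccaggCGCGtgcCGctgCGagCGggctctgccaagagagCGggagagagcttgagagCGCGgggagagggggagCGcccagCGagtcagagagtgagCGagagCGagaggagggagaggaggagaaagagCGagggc
Fezf2 MGE peak: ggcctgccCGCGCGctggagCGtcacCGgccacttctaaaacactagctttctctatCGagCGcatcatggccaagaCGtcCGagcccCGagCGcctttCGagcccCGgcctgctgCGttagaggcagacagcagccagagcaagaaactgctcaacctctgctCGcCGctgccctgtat
The Tbr1 stretch holds 5 CpG sites at 45.2% GC, the Eomes stretch 8 at 46.4% GC and the Pou3f2 stretch 18 at 66.8% GC. The shorter Fezf2 peak, 180 bases long, holds 16 CpG sites at 62.8% GC.

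All 9 genes had a peak within 5 kb of an annotated transcription start site (TSS) in all 4 lists, against 61.3% of protein-coding genes, while 67.9% had a peak in any list. In the single lists that share of protein-coding genes was 63.8% in CTX, 65.0% in MGE, 64.2% in LGE and 64.6% in CGE. The 9 genes together had 23 such peaks in CTX, 20 in MGE, 11 in LGE and 10 in CGE. Their peaks covered 25110 bases of the TSS windows in CTX, 18112 in MGE, 33645 in LGE and 35470 in CGE. Within the TSS windows the CTX list thus had the most peaks, while the LGE and CGE lists had fewer, wider peaks and more covered bases. With the gene bodies added, MGE had the most, with 40 peaks, and CTX had 35, LGE 16 and CGE 15. The median gene of the 9 was covered over 2885 bases in CTX, 2413 in MGE, 3574 in LGE and 3905 in CGE, against medians of 1088, 1044, 1402 and 1497 bases for protein-coding genes with a peak.

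**Figure D1:**
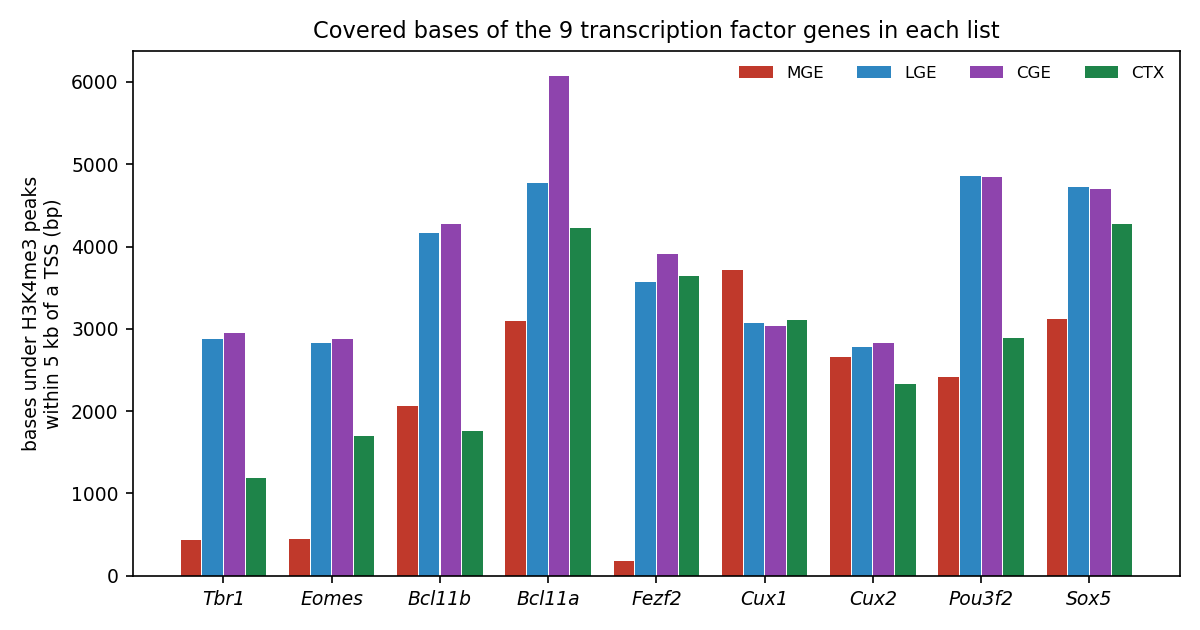
Bars give, for each of the 9 genes (horizontal axis), the width in bp that peaks cover at up to 5 kb from its TSSs (vertical axis), 1 bar per merged list, with no error since each region has 1 list. Bars for Tbr1, Eomes and Fezf2 are short in MGE (429, 445 and 180 bp). No gene has its tallest bar in CTX, the list that also covers the least in total (16.7 Mb).

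The lists themselves differ in peak number and width, and these differences run beside every comparison of covered bases. MGE and CTX held 25339 and 21442 peaks with median widths of 563 and 701 bp, whereas LGE and CGE held 17284 and 17752 peaks with medians of 1168 and 1240 bp. The median −log10 q of a peak, which grows with the number of reads, was 8.57 in CTX, 5.19 in MGE, 40.0 in LGE and 79.3 in CGE. Covered bases were therefore also expressed as a within-list percentile, the percentage of protein-coding genes with fewer covered bases in the same list. Genes without a peak made up 36.2% of protein-coding genes in CTX, 35.0% in MGE, 35.8% in LGE and 35.4% in CGE, so a gene with even a short peak ranks above these values. The lists hold no read counts, but by the study's methods MGE was sequenced less deeply than LGE and CGE, and CGE most deeply of these 3. CTX cannot be placed in this order, since the depth printed for its first replicate is malformed. Its second replicate was sequenced more deeply than either LGE replicate, while the CTX list had narrower peaks and a lower median −log10 q than LGE. The part of read depth in the widths and in the low MGE coverage described below was not tested.

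Ranked by covered bases, CGE came first for 6 of the 9 genes, LGE for 2, MGE for 1 and CTX for 0. Whole lists covered 23.5 Mb (CGE), 21.6 Mb (LGE), 17.1 Mb (MGE) and 16.7 Mb (CTX). No share of protein-coding genes was computed for these 4 counts, and the part of list size in them was not tested. By percentile, CTX came first for 3 genes (Fezf2, Bcl11a and Sox5), against 31.4% of protein-coding genes with a peak in any list. LGE came first for 4 genes and MGE for 2, again with no such share computed. The CTX percentile was above the MGE percentile for 6 of 9 genes, against 48.4% of protein-coding genes with a peak in either list. It was above the LGE percentile for 5 genes, against 59.9%, and above the CGE percentile for 5 genes, against 59.7%. The shares for LGE and CGE were near those of all protein-coding genes. The percentile was lowest in MGE for 6 of 9 genes, against 21.0% of protein-coding genes. The median percentile of the 9 genes was 98.4 in CTX, 96.8 in MGE, 97.9 in LGE and 98.0 in CGE, and 6 of the 9 sat at 89.9 or above in every list. These medians depend on the setting. With every list reduced to 17284 peaks of highest fold enrichment, the full length of the LGE list, they were 41.4 in CTX and 0.0 in MGE. With the same number of peaks of highest −log10 q they were 95.4 in CTX and 96.2 in MGE. By the covered share of the windows the MGE median was 79.4. The windows of a gene ran from 10001 bases at Pou3f2 to 70392 at Cux2. By the covered share of these windows the lowest of the 9 genes sat at 49.6 in CTX, 44.9 in LGE and 43.5 in CGE. By covered bases the lowest sat at 72.8, 94.9 and 93.7, so the high ranks also depend on this choice. For Bcl11a and Sox5 the 4 percentiles lay within 0.797 and 0.793 points of each other.

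**Figure D2:**
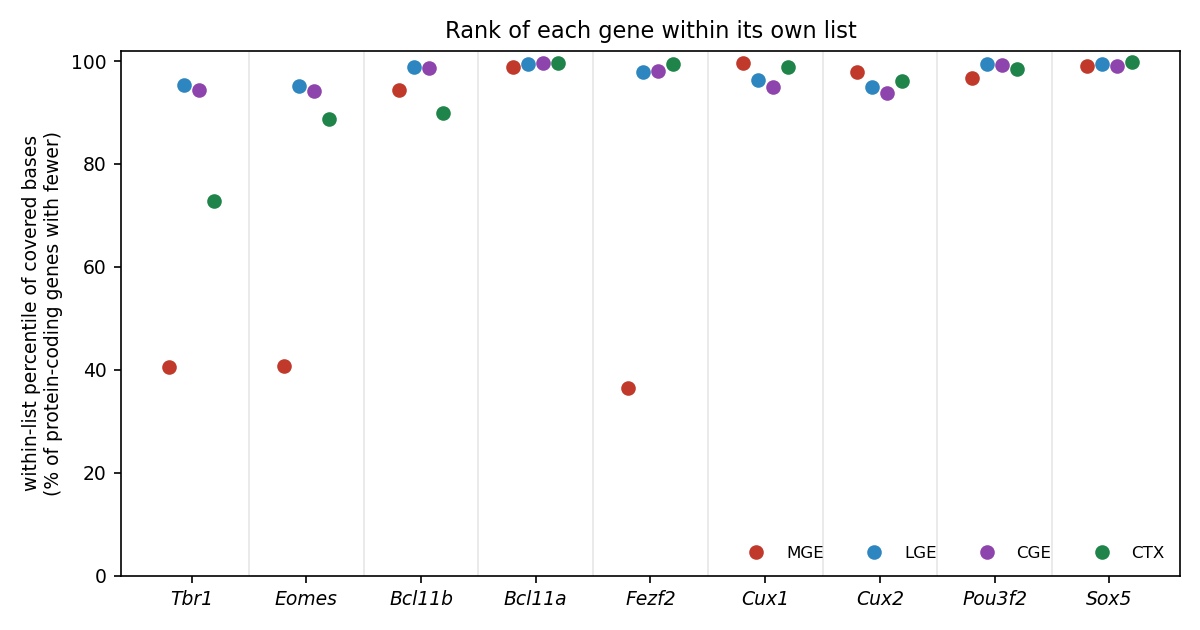
Points give the within-list percentile of covered bases (vertical axis, % of protein-coding genes with fewer covered bases) of each gene (horizontal axis) in the 4 lists. The MGE points of Tbr1, Eomes and Fezf2 lie at 40.5, 40.7 and 36.5, far below the other 3 points of the same gene, except that the CTX point of Tbr1 lies at 72.8, and the other 6 genes stay above 89 in every list.

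Tbr1 spans chr2:61802930-61814114 on the plus strand and has 4 annotated TSSs. Its peaks covered 1187 bases in CTX, 429 in MGE, 2878 in LGE and 2945 in CGE, at percentiles, in the same order, of 72.8, 40.5, 95.4 and 94.4. LGE and CGE were high, CTX was intermediate and MGE was low. In LGE and CGE the mark formed 1 block that began 236 and 169 bases downstream of its main TSS, that of the transcript numbered lowest in GENCODE, ended 3113 bases downstream of it, and covered 2 internal TSSs. In CTX it formed 3 separate peaks of 554, 320 and 313 bp that covered none of the 4 TSSs. The 320-bp CTX peak lay wholly in coding exon, and the 554-bp peak, upstream of the main TSS, lay in exon and intron of a non-coding transcript. In MGE the only peak, 429 bp, began 832 bases downstream of the main TSS in coding exon and intron, and shared 0 bases with the CTX peaks. The 250 bases printed above for Tbr1 held no peak base in any list. A further peak towards the 3′ part of the gene was found in CTX, LGE and CGE, with widths of 318, 976 and 777 bp, and not in MGE.

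Eomes spans chr9:118478212-118486132 on the plus strand, with 3 TSSs, and had 1 peak in every list. The peak covered 1699 bases in CTX, 445 in MGE, 2831 in LGE and 2878 in CGE, at percentiles of 88.8, 40.7, 95.1 and 94.1. The order was again LGE and CGE, then CTX, then MGE. All 3 TSSs lay under the LGE, CGE and CTX peaks. The MGE peak lay wholly in coding exon and covered 1 TSS, the most downstream. Of the printed upstream stretch, the 250 bases were covered whole in LGE, over 66 bases in CTX and over 0 bases in MGE and CGE.

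Fezf2, the zinc-finger factor of subcerebral neurons, spans chr14:12342094-12348189 on the minus strand and showed the widest range of the 9 genes, 62.8 percentile points. Its peaks covered 3644 bases in CTX, 180 in MGE, 3574 in LGE and 3905 in CGE, at percentiles of 99.4, 36.5, 97.9 and 98.0. MGE stood apart, and the other 3 lists carried a block over most of the gene. The CTX block of 3442 bp was wider than all but 15 of the CTX peaks, whereas 116 LGE peaks and 112 CGE peaks were wider than the LGE and CGE blocks. The blocks of LGE, CGE and CTX covered 2 of the 3 TSSs, and 3181 bases were marked in these 3 lists and not in MGE. The MGE peak, printed above, began 812 bases downstream of the main TSS and covered no TSS.

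For Tbr1, Eomes and Fezf2, MGE covered at most 0.5 times the bases of each other list, a rule set after the values were seen. This held for 3 of the 9 genes and for 1.62% of protein-coding genes with a peak in every list. With windows of 10 kb Tbr1 no longer met it, with 1445 bases in MGE and 1766 in CTX, which left Eomes and Fezf2. The MGE peaks of these genes also ranked low by −log10 q in their own list. Their −log10 q values were 1.58 for Tbr1, 1.08 for Eomes and 1.99 for Fezf2, higher than 19.3%, 8.35% and 26.8% of MGE peaks. Low ranks were not confined to MGE. The widest Tbr1 peak was above 3.49% of peaks in CTX, 34.6% in LGE and 42.2% in CGE. In the same order these values were 31.0%, 31.6% and 32.8% for Eomes and 55.4%, 28.5% and 31.0% for Fezf2. With peaks of −log10 q below 2 left out, none of these 3 genes had a peak in MGE, and their CTX percentiles were 46.4, 89.1 and 99.4. Tbr1 thus kept only its shorter CTX peaks, since the 554-bp CTX peak had a −log10 q of 1.64.

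**Figure D3:**
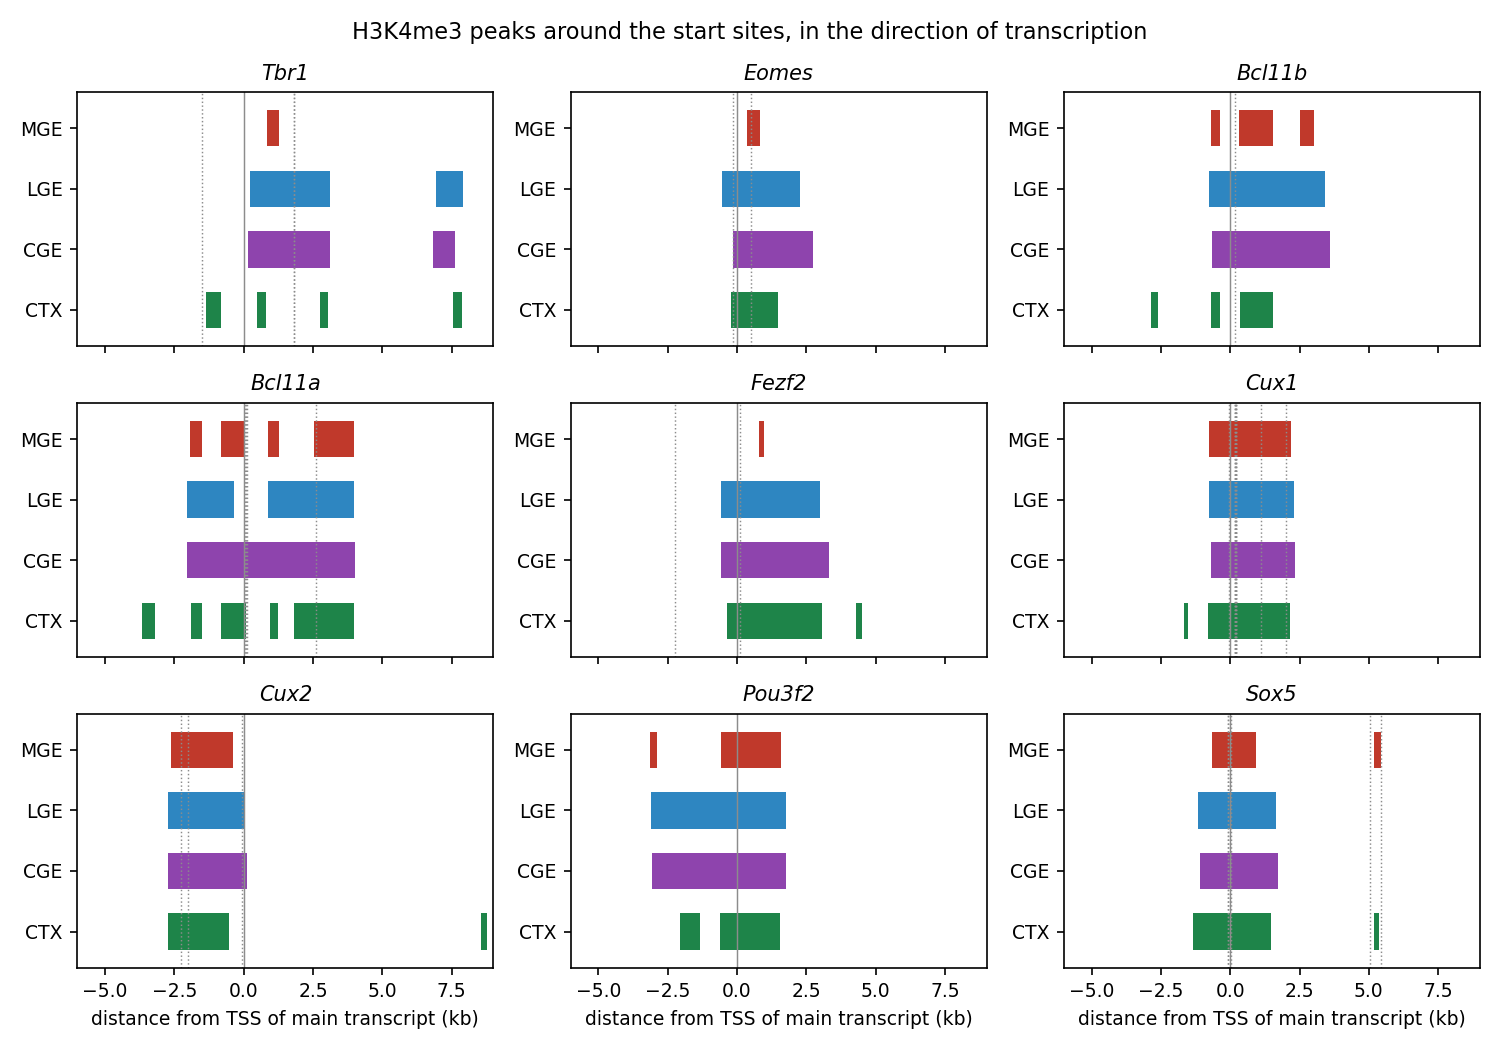
Bars mark the H3K4me3 peaks of each gene in the 4 lists (rows), by distance in kb from its main TSS (solid line, horizontal axis in the direction of transcription); dotted lines mark other annotated TSSs, and peaks beyond the axis are not drawn. LGE and CGE show 1 block at Bcl11b (4163 and 4270 bp) where MGE and CTX show 3 separate peaks each, and the MGE bars at Fezf2, Tbr1 and Eomes are short.

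Bcl11b, on the minus strand at chr12:107910403-108003602, is a zinc-finger factor with 2 TSSs. Its peaks covered 1764 bases in CTX, 2056 in MGE, 4163 in LGE and 4270 in CGE, at percentiles of 89.9, 94.3, 98.9 and 98.6. CTX had the lowest value of the 4 lists by both measures. In LGE and CGE a single block covered both TSSs. In MGE and CTX neither TSS lay under a peak, since a peak of 308 bp in MGE and 309 bp in CTX ended 372 and 382 bases upstream of the main TSS and the next peak, of 1222 and 1203 bp, began 331 and 350 bases downstream of it. With peaks less than 1 kb apart joined, MGE had 1 block of 3705 bp and CTX had 2, the wider of 2243 bp. The RefSeq promoter of Bcl11b was covered whole in LGE and CGE and over 0 bases in MGE and CTX. Within its introns, outside the TSS windows, Bcl11b had 2 peaks in CTX, 5 in MGE, 2 in LGE and 3 in CGE.

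Bcl11a, its paralogue on the plus strand at chr11:24078056-24174123, ranked near the top of every list. Its peaks covered 4223 bases in CTX, 3096 in MGE, 4776 in LGE and 6075 in CGE, at percentiles of 99.7, 98.9, 99.4 and 99.7. The number of peaks was 5 in CTX, 4 in MGE, 2 in LGE and 1 in CGE. The single CGE peak of 6075 bp was exceeded in width by 7 CGE peaks and covered 5 of the 6 TSSs. With peaks less than 1 kb apart joined, the widest CTX block measured 5879 bp, close to the CGE peak, and 2 CTX blocks were wider. The windows also hold the start of the lincRNA Gm12063, which lay under a peak in LGE, CGE and CTX, and the peak calls cannot assign such a peak to either gene.

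The homeobox genes Cux1 and Cux2 had the most even covered bases of the 9 genes, with the highest list within 1.22 times the lowest for Cux1 and 1.21 times for Cux2. Cux1, on the minus strand at chr5:136248135-136567490, was covered over 3103 bases in CTX, 3711 in MGE, 3068 in LGE and 3031 in CGE, at percentiles of 98.8, 99.6, 96.3 and 95.0. It was the only gene of the 9 with its highest covered bases in MGE, where 2 further intronic peaks of 466 and 315 bp lay near internal TSSs. The same 10 of its 14 TSSs lay under a peak in every list. Cux2, on the minus strand at chr5:121856366-122050102, was covered over 2328 bases in CTX, 2658 in MGE, 2780 in LGE and 2824 in CGE, at percentiles of 96.1, 97.9, 94.9 and 93.7. Its main peak measured 2194, 2244, 2780 and 2824 bp in the same order. The LGE and CGE peaks reached the main TSS and covered 4 of 11 TSSs, while the MGE and CTX peaks ended 378 and 530 bases upstream of it and covered 2. That peak also covers the start of the antisense gene Gm15637 in all lists, where the same limit applies.

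Pou3f2 is an intronless POU-domain gene on the minus strand at chr4:22482780-22488366, with 1 TSS that lay under a peak in every list. Its peaks covered 2885 bases in CTX, 2413 in MGE, 4857 in LGE and 4844 in CGE, at percentiles of 98.4, 96.8, 99.5 and 99.2. LGE and CGE were higher than MGE and CTX. The main peak of 2165 bp in MGE and 2188 bp in CTX was part of a block of 4857 bp in LGE and 4844 bp in CGE, which ran 3097 and 3074 bases upstream and covered the start of the lincRNA Gm30731. Only 12 LGE peaks and 27 CGE peaks were wider. In MGE and CTX a separate peak of 248 and 697 bp lay upstream.

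Sox5, an HMG-box gene spread over chr6:143828425-144781977 on the minus strand, was covered over 4277 bases in CTX, 3124 in MGE, 4718 in LGE and 4698 in CGE. Its percentiles were 99.8, 99.0, 99.4 and 99.1, the highest of the 9 genes in CTX, where 53 protein-coding genes were covered more. The widest signal lay at 2 promoters in every list, and a short peak that began 5186 bases downstream of the main TSS in MGE (259 bp) and 5170 in CTX (207 bp) covered a further TSS in MGE only. The internal promoter, around the main TSS, carried a peak of 2847, 1569, 2826 and 2828 bp, in the same order of lists. The most upstream promoter, at the TSSs of 2 non-coding transcripts, carried peaks of 1223, 1296, 1892 and 1870 bp. The 4 TSSs at chr6:143947088-143947106, which include that of the RefSeq promoter entry, were free of peaks in every list. Elsewhere in the gene body, outside the TSS windows, lay 6 peaks in MGE and 4 in CTX, with 0 in LGE and CGE.

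Several of the 9 genes had 1 peak in LGE and CGE where CTX or MGE had more. A single peak in LGE and CGE with at least 2 peaks in CTX was found at 6 of 9 genes (Tbr1, Bcl11b, Fezf2, Cux1, Cux2 and Pou3f2), against 7.04% of protein-coding genes with a peak in every list. The same with at least 2 peaks in MGE was found at 4 of 9 genes (Bcl11b, Cux1, Cux2 and Pou3f2), against 9.2%. Not all of the added peaks are pieces of a promoter block. The second Fezf2 peak in CTX, 202 bp wide, lay wholly beyond the 3′ end of the gene. The second Cux2 peak began 123267 bases downstream of the main TSS in CTX and 121959 bases in MGE, and the added Cux1 peaks of MGE began 209915 and 263446 bases downstream. With peaks less than 1 kb apart joined, Cux1 and Pou3f2 had 1 block in CTX and Bcl11b 1 block in MGE. Peaks of at least 3 kb lay at 1 of the 9 genes in CTX (Fezf2), at 0 in MGE, at 5 in LGE and at 5 in CGE. The shares of protein-coding genes with such a peak were 0.31% in CTX, 0.219% in MGE, 1.64% in LGE and 2.2% in CGE. The authors' fold enrichment, averaged over a peak, was low in the widest peaks of these genes. It ran from 2.54 at Bcl11a to 4.85 at Sox5 in CTX, from 2.6 at Bcl11a to 5.12 at Sox5 in MGE, from 2.03 at Bcl11a to 3.82 at Cux1 in LGE and from 2.14 at Bcl11a to 3.97 at Sox5 in CGE. The medians over all peaks were 5.08, 4.59, 5.63 and 5.81 in the same order, so among these widest peaks only that of Sox5 in MGE exceeded the median of its list. Narrower peaks of the same genes are not part of this count, and some exceeded the median, as at Sox5 and Bcl11b in CTX.

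**Figure D4:**
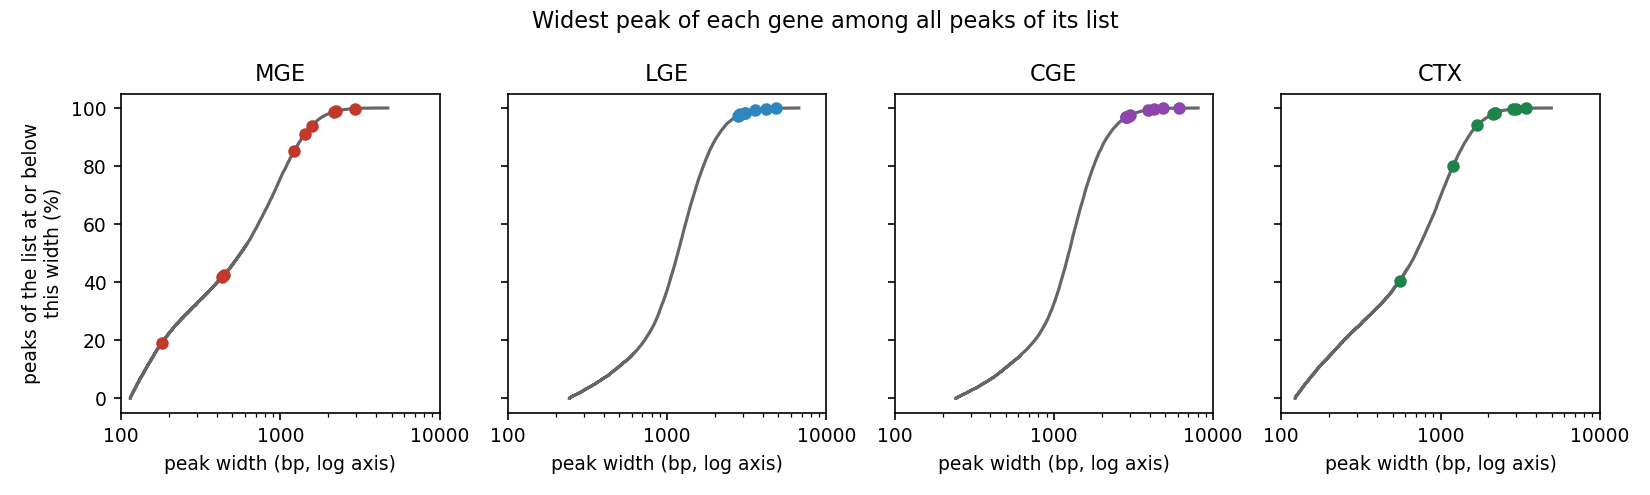
Lines give the percentage of all peaks of a list (vertical axis) at or below a given width in bp (horizontal axis, log scale), and points place the widest peak of each of the 9 genes on that line. In LGE and CGE all points lie above 96%, while in MGE the points of Fezf2, Tbr1 and Eomes lie at 19.0%, 41.6% and 42.6%, and in CTX that of Tbr1 lies at 40.5%.

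Of the bases covered in either list, LGE and CGE shared 93.7% for the median gene of the 9, against 92.3% for the median protein-coding gene with a peak in both, so the values were alike. The lowest shares of this pair were 73.1% at Eomes and 78.6% at Bcl11a. MGE and CTX shared 64.8%, with a range of 0.0% at Tbr1 to 75.1% at Cux1, against 86.8% for protein-coding genes. LGE and CTX shared 60.0% and CGE and CTX 59.6%, against 75.1% and 70.9%. MGE and LGE shared 49.4% and MGE and CGE 47.6%, against 72.5% and 68.3%. The median of the 9 genes was thus below that of protein-coding genes in every pair except LGE and CGE. Of the 56 TSSs annotated to the 9 genes, a peak covered 27 in CTX, 23 in MGE, 31 in LGE and 35 in CGE, or 48.2%, 41.1%, 55.4% and 62.5%. The corresponding shares of all TSSs of protein-coding genes were 43.9%, 43.9%, 46.3% and 47.2%.

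Peaks inside the gene body and outside the TSS windows were found at 5 of the 9 genes in CTX, at 4 in MGE, at 4 in LGE and at 3 in CGE. The shares of all protein-coding genes were 8.83%, 12.3%, 5.39% and 5.83%. Bcl11b, Bcl11a, Cux1, Cux2 and Sox5 are longer than 90 kb, and Tbr1, Eomes, Fezf2 and Pou3f2 are shorter. Among protein-coding genes of at least 90 kb the shares were 34.2% in CTX, 46.9% in MGE, 19.2% in LGE and 19.8% in CGE. The counts over all 9 genes include the short Tbr1 in CTX, LGE and CGE. Of the 5 long genes, Bcl11b, Bcl11a, Cux2 and Sox5 had such a peak in CTX. In MGE these were Bcl11b, Cux1, Cux2 and Sox5, in LGE Bcl11b, Bcl11a and Cux2, and in CGE Bcl11b and Cux2. An intronic peak of Cux2 recurred in all 4 lists, with widths in the same order of 744, 563, 394 and 758 bp. Intronic peaks of MGE included short and weak ones, such as those of 134 and 132 bp in Sox5, with −log10 q values of 1.45 and 2.08.

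The RefSeq promoters of the 9 genes, 10 windows of 300 bases, differed in CpG content. CpG observed over expected was 0.45 for Tbr1, 0.61 for Eomes, 0.65 for Bcl11b, 0.74 for Fezf2, 0.79 for Cux1, 0.81 for Bcl11a and 0.82 for Pou3f2, against a median of 0.38 over 32817 promoters. Cux2 had windows at 1.01 and 0.18, and Sox5 had 0.26. The Cux2 window at 1.01 was covered whole in every list, and the window at 0.18 was covered in LGE and CGE only. The Sox5 window at 0.26 and the Tbr1 window were covered in none, although a peak touched 40.1% of promoters in CTX, 40.5% in MGE, 41.8% in LGE and 42.4% in CGE. The E-box, CANNTG on either strand, occurred in the windows of Tbr1, Bcl11a and Cux2 and in 72.3% of all promoters. The T-box core, GGTGTGA or its complement, occurred in the Bcl11a window only and in 3.98% of all promoters, and these matches are letters in a window, not sites of binding.

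Paralogues of these factors were marked in every list as well. All 7 (Tbx21, Fezf1, Pou3f1, Pou3f3, Pou3f4, Sox6 and Sox13) had a peak in all 4 lists, with median percentiles of 92.7 in CTX, 95.5 in MGE, 97.4 in LGE and 97.3 in CGE. The highest percentile was in CTX for 0 of 7, against 31.4% of protein-coding genes with a peak in any list. Pou3f1, a relative of Pou3f2, was at 51.2 in CTX, where Pou3f2 was at 98.4. In the other lists Pou3f1 was at 95.5 in MGE, 97.4 in LGE and 97.3 in CGE. Fezf1, the relative of Fezf2, was at 96.7 in CTX, 86.8 in MGE, 98.3 in LGE and 99.2 in CGE, so its MGE value did not stand as far apart as that of Fezf2. Tbx21, a T-box relative known from T cells, was low throughout, at 49.9, 53.7, 38.9 and 65.2 in the same order. Pou3f3 and Sox6 were at 97.0 or above in every list, Pou3f4 ranged from 89.1 in CTX to 97.0 in LGE, and Sox13 from 82.3 in LGE to 94.0 in MGE.

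Among 35 further genes of the glutamatergic cortical programme, 35 had a peak in all 4 lists. Their median percentiles were 94.0 in CTX, 85.0 in MGE, 96.2 in LGE and 95.3 in CGE. The highest percentile was in CTX for 13 of 35, against 31.4% of protein-coding genes with a peak in any list. The low MGE coverage seen at Tbr1, Eomes and Fezf2 (at most 0.5 times the bases of each other list) was found at 8 of these 35 genes and at 0 of the 7 paralogues. The share of protein-coding genes with a peak in every list was 1.62%, and 0 of 7 is near that share. The rule itself was set from the values of Tbr1, Eomes and Fezf2. The 8 genes were Emx1, Emx2, Pax6, Lhx2, Neurog2, Neurod2, Bhlhe22 and Nhlh1, progenitor and neuronal transcription factors, named here after their values were seen. Over all protein-coding genes, the 3 genes nearest to Fezf2 in their 4 percentiles were Emx1, Zic5 and Dmrta2, at Euclidean distances of 5.49, 6.04 and 6.37 percentile points. Those nearest to Tbr1 were Robo2, Plxnd1 and Hmgb3, at 8.82, 9.11 and 9.13 points. These distances rest on 4 lists.

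**Figure D5:**
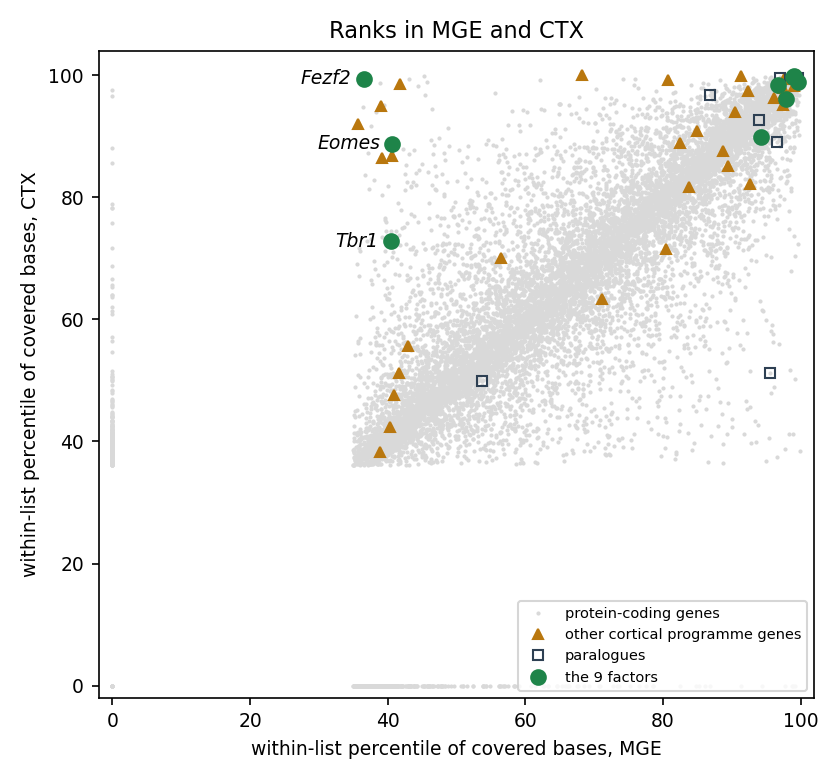
Each point is a gene, placed by its within-list percentile of covered bases in MGE (horizontal axis, % of protein-coding genes) and CTX (vertical axis, %); grey points are protein-coding genes, triangles the 35 programme genes, squares the 7 paralogues and circles the 9 factors, with points at 0 having no peak. Fezf2, Eomes and Tbr1 lie left of the main band at MGE percentiles of 36.5, 40.7 and 40.5, and the other 6 factors sit at the upper right.

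The markers of each region bear on how far the lists separate the tissues. All 3 dorsal markers (Emx1, Neurod2 and Neurod6) had a peak in every list, with covered bases of 242 to 2969 in CTX, 138 to 495 in MGE, 1132 to 3337 in LGE and 584 to 3453 in CGE. The median percentiles of these markers were 92.0 in CTX, 38.9 in MGE, 90.9 in LGE and 91.5 in CGE. Emx1 and Neurod2 were low in MGE and high in the other 3 lists, but Neurod6 did not separate CTX from MGE, at percentiles of 38.3 and 38.9 against 54.5 in LGE and 37.4 in CGE. All 5 markers of the eminences (Dlx1, Dlx2, Dlx5, Gad1 and Gsx2) had a peak in every list, with covered bases of 129 to 1307 in CTX, 1663 to 2832 in MGE, 2189 to 4003 in LGE and 2209 to 5554 in CGE. Of the MGE markers, Nkx2-1 and Lhx8 were at 0 in CTX and Lhx6 was covered over 451 bases there, but all 3 had peaks in LGE and CGE, where Nkx2-1 reached percentiles of 95.7 and 97.8. Of the LGE markers, Sp8 had its highest percentile in CTX (99.1) and Isl1 and Ebf1 in CGE, while Nr2f1, Nr2f2 and Prox1, the CGE markers, had theirs in CGE. The markers of blood, vessels and meninges were marked at 7 of 8 genes in each list, with Gata1 at 0 in all 4 and the others covered over 371 to 2835 bases. The shares of protein-coding genes with a peak in a list were 63.8% to 65.0%. Median percentiles over the 4 lists ran from 46.6 to 53.2 for blood, 45.1 to 59.3 for vessels and 41.2 to 66.4 for meninges. In single-nucleus accessibility data, the paper described a mixed neuron population in its LGE and CGE dissections, with profiles nearer to glutamatergic markers. The paper did not detect it in MGE and called it likely contamination from the boundary between pallium and subpallium. The part of such cells, of other cells from neighbouring regions or of blood, vessels and meninges in the values of the 9 genes was not tested.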

How the data were processed

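H3K4me3 was measured by CUT&Tag in 12 libraries of 4 regions. According to the methods and the submitters' processing notes, the authors aligned reads to GRCm38 (mm10) with Bowtie2, removed duplicates with Picard, merged the replicates of a region and called broad peaks with MACS, whose version, threshold and control are not given in the sources used here. The lists deposited by the authors hold, per peak, its position, a score, the fold enrichment (a ratio of reads to background), the −log10 p-value and the −log10 q-value. Peak numbers have gaps in each list, so some called peaks are not analysed here. The lists do not give the reads behind a peak, so no interval could be given. The methods state a read depth per library, which was lower for MGE than for LGE and CGE and is malformed for the first CTX replicate. The labels' protocol names embryonic day 12.5 and a later day, and speaks of equal numbers of nuclei of the regions being pooled; how the regions were then kept apart is not given in the sources used here.

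Peaks sharing at least 1 bp with 5 kb either side of any TSS in GENCODE M21 (GRCm38) were assigned to a gene, and the covered bases of the windows were counted in Python 3.11.15 with numpy 2.4.6 and pandas 2.3.3 and ranked among 21951 protein-coding genes. The interval code was tested on simulated data. Peak ends lie within the chromosome lengths of GRCm38.p6, from which sequences were read; promoter windows are RefSeq's (GRCm38.p6), with an entry for 9 of 9 genes. Groups are the regions of the labels. The 9 genes, the related genes and the markers were chosen with earlier results of these data known. Named are the 9 genes, their paralogues, markers, genes starting within their windows and, for the 2 genes with the widest percentile range, the 3 nearest genes. Alternatives changed the window, TSS set, peak filter, list length, joining of peaks and ranking.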

Additional observations from a re-analysis of the deposited data

How the results depend on the processing

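Of 100 recomputed counts of the 9 genes (genes with a peak in each list, genes highest in CTX, genes higher in CTX than in each eminence), 94 stayed within 1.5 times the reported count and 6 did not. That tolerance is wide for counts out of 9. With peaks that also cover the start of another gene left out, 7 genes had a peak in LGE and 6 in CGE, which counts as within it. All 9 kept a peak in MGE and CTX, and Bcl11a had 0 covered bases in CGE. With only the 5′ end of the gene as TSS, the CTX percentile was above that of LGE for 3 genes and above that of CGE for 3. With every list reduced to its 17284 peaks of highest fold enrichment, 3 genes had a peak in MGE and 5 in CTX, and the CTX percentile was above that of LGE for 2 genes and above that of CGE for 3; Fezf2 then had no CTX peak. Tbr1 and Eomes were lowest in MGE in all settings, and Fezf2 in all but that setting, where MGE and CTX tied at 0.0. With windows of 10 kb the MGE percentile of Tbr1 was 76.6, and its MGE coverage was no longer at most 0.5 times that of CTX. Of 396 recomputed covered-base values 99 moved, and of 396 peak numbers 69. No paired analysis was possible because replicates were merged into 1 list per region, and for the same reason leaving out a replicate was not run. The lists give no reads per peak, and a gene without a peak is below the caller's threshold, not without the mark.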
